A study of Mus musculus with 24 samples.

Results

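The 10 genes followed here mark Cajal-Retzius cells. They are Reln, Trp73, Lhx1, Lhx5, Calb2, Ndnf, Nhlh2, Cacna2d2, Ebf2 and Ebf3, and their levels were read from RNA-seq of sorted cells of the mouse cerebral cortex at E15.5. They were chosen by symbol, and all 10 matched 1 Ensembl identifier each among the 39017 genes in the count tables. The 24 libraries form 6 groups of 4: PAX6+ cells, labelled radial glia, TBR2+ cells, labelled intermediate progenitors, and PAX6-TBR2- cells, labelled neurons, each from 2 genotypes. Libraries called WT are Prdm16 flox/flox, and libraries called KO are Emx1Ires-Cre; Prdm16flox/flox, so both genotypes carry floxed alleles of Prdm16, a zinc finger gene that acts on transcription. Emx1 directs the Cre recombinase to the dorsal telencephalic lineage. Only KO carries Cre, so what Cre or the Emx1 knock-in does by itself, and what losing Prdm16 does, cannot be told apart. Nothing in the labels says which embryos gave which library, so the spread behind each p-value is that between libraries and may be technical.

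Cajal-Retzius cells are early-born neurons of the marginal zone. Most arise at the edges of the pallium, such as the cortical hem and the antihem, and from there spread over the surface of the cortex, and they are known for secreting reelin, the protein that Reln encodes. Reelin acts on migrating neurons through the receptors encoded by Vldlr and Lrp8 and the adaptor encoded by Dab1. Trp73 (the p53 relative p73), the LIM homeobox genes Lhx1 and Lhx5, the EBF family genes Ebf2 and Ebf3 and the basic helix-loop-helix gene Nhlh2 encode transcription factors. Calb2 encodes the calcium-binding protein calretinin, Ndnf a secreted factor, and Cacna2d2 an alpha2delta subunit of voltage-gated calcium channels. None of these genes is restricted to Cajal-Retzius cells: Reln, Calb2 and Ndnf, for example, are also known from interneurons.

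The 250 bases before the start site were read from RefSeq (GRCm38.p6) for the 6 genes that have an entry there, in 7 windows since Trp73 has 2. They were searched on both strands for 3 motifs that read the same on both: CCCNNGGG (EBF type), CAGCTG (an E-box) and TAATTA (LIM homeobox type). The windows of Reln and Ebf3 are shown because they hold CCCNNGGG and because Ebf1, another EBF gene, has a place in the results. The matches, in capitals, begin at -248 and -116 in Reln and at -21 in Ebf3, counted from the start site.
Reln, chr5:22344706-22344955, minus strand: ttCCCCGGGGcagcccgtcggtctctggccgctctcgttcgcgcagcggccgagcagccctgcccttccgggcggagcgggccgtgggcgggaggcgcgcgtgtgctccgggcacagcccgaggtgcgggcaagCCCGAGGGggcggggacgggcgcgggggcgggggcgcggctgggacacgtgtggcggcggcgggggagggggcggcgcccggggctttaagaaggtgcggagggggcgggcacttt
Ebf3, chr7:137314446-137314695, minus strand: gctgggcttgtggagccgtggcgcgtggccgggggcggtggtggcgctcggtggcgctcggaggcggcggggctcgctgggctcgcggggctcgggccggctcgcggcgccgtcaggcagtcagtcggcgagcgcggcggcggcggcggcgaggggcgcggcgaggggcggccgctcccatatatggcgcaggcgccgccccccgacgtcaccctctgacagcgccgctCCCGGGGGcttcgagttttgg
CCCNNGGG was found in 2 of the 7 windows and in 11.8% of the 32851 RefSeq windows of the same length. CAGCTG was found in 1, a Trp73 window, against 13% of all windows, and TAATTA in none, against 4.84%. These counts describe the letters only.

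Library totals were 4.95 to 12.55 M counts in 23 libraries and 30.03 M in WT PAX6-TBR2- replicate 4. The sorted populations differed in their defining genes. Mean Pax6 was 441 CPM (read counts scaled to library size) in WT PAX6+, 242 in WT TBR2+ and 29.8 in WT PAX6-TBR2-. Eomes, which encodes TBR2, was at 870 to 1008 CPM in WT TBR2+ and at or under 112 CPM in the other WT libraries, and the neuronal tubulin gene Tubb3 was at 5.70 to 11.1 CPM in WT PAX6+ against 379 or more in the others. Prdm16 was at 213 to 295 CPM in WT PAX6+ and 160 to 227 CPM in KO PAX6+. The floxed exons are not given in the labels, so reads over the whole gene check the genotype only in part.

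One library stood apart for the Cajal-Retzius genes. WT PAX6+ replicate 3 was the highest of its group for 9 of the 10 genes, by 3.43 to 9.30 times the next library. Over all tested genes 30.8% were highest there, and 0.471% were over 2 times every other library. Lhx1, Lhx5 and Ebf2, among the 9, were too low to test, so these shares do not cover genes with so few counts. The summed level of the 10 genes was 42.4, 49.9, 351 and 63.1 CPM in WT PAX6+ replicates 1 to 4. In KO PAX6+ it was 23.0, 47.6, 111 and 25.0 CPM, and replicate 3 was the highest library for 9 of the 10 genes there too (27.2% of tested genes). Lhx1, Lhx5, Calb2 and Ebf2 are among those 9 and were also too low to test. The values of the 10 genes in PAX6+ cells are therefore given with and without replicate 3. In bulk samples such as these, fewer cells of a type and less RNA per cell cannot be told apart.

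The plot of levels per library shows all values.

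**Figure D1:**
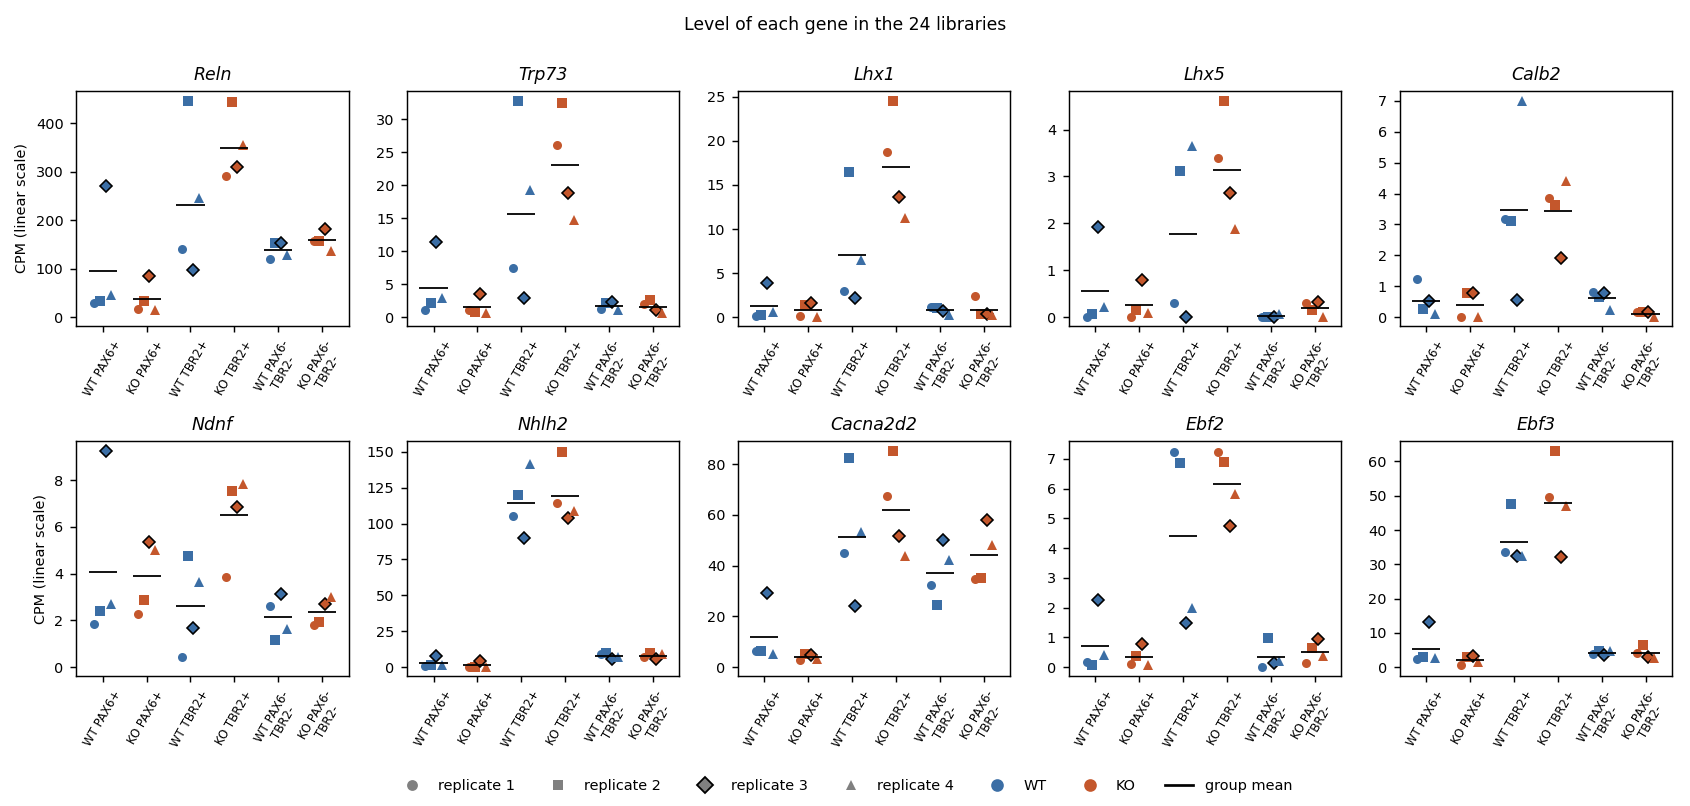
Level of each of the 10 genes in CPM (linear scale) in the 24 libraries, by group. Points are libraries, with replicate 3 outlined in black, and horizontal lines are group means; most genes are highest in TBR2+, and WT PAX6+ replicate 3 lies above the other WT PAX6+ libraries for 9 of the 10 genes.

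The WT libraries were compared first, to place the genes over the sorted populations. TBR2+ cells held more of most of them than PAX6+ cells: 8 of the 9 tested genes were called higher (edgeR's quasi-likelihood test, adjusted p under 0.05), where 61.6% of all genes were called in either direction and 30.1% higher. Both TBR2+ groups had the highest means for 9 of the 10 genes, Ndnf being the exception. Each population's libraries carry their own name prefix, so population and library set cannot be told apart. The intermediate progenitor genes were higher in TBR2+ as well (8 of 9 called). So were the pan-neuronal genes (8 of 8 called). The median log2 fold change was 5.10 for the pan-neuronal, 1.65 for the intermediate progenitor and 2.43 for the Cajal-Retzius genes. The pan-neuronal list summed to 4960 to 5996 CPM in WT TBR2+ and to 328 to 404 CPM in WT PAX6+. The meninges list summed to 40.0 to 46.9 CPM in WT TBR2+, with Lum and Aldh1a2 at 0, against 4.08 to 5.63 CPM in WT PAX6+. Of its 9 genes only 2 were tested, 1 called higher and 1 called lower in TBR2+. The sum thus shows no rise shared by the list. The part of the intermediate progenitor, pan-neuronal or meninges genes in these differences was not tested.

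Nhlh2 showed the widest gap. It was at 0.791, 1.45, 7.71 and 1.66 CPM in WT PAX6+ and at 105, 120, 89.7 and 141 CPM in WT TBR2+. No library overlapped, and the log2 fold change was 5.21 (SE 0.39, adjusted p = 1.597e-09). Ebf3 followed at 2.74 (SE 0.38), Calb2 at 2.69 (SE 0.62), Ebf2 at 2.51 (SE 0.70), Lhx1 at 2.43 (SE 0.71), Cacna2d2 at 2.08 (SE 0.44) and Trp73 at 1.80 (SE 0.59). Reln was called by a small margin (1.30, SE 0.55, adjusted p = 0.04852), and its libraries overlapped through WT PAX6+ replicate 3. DESeq2 called 6 of the genes, without Trp73 (adjusted p = 0.05186) and Reln (adjusted p = 0.1385). Ndnf was not called (-0.64, SE 0.55, adjusted p = 0.3175), and Lhx5 was too low to test. Leaving out 1 library gave 5 to 8 called genes, with 5 when WT TBR2+ replicate 2 was left out. Without WT PAX6+ replicate 3 all 8 were called, where 59.1% of all genes were, and the log2 fold change was 2.69 for Reln, 2.95 for Trp73, 4.44 for Lhx1, 4.39 for Ebf2 and 6.45 for Nhlh2.

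Per kilobase of exon, the only scale on which genes can be set side by side, mean levels in WT TBR2+ were 21 CPM for Nhlh2, 9.77 for Reln, 6.44 for Cacna2d2, 3.95 for Ebf3 and 2.82 for Trp73. Calb2 stood at 1.98, Lhx1 at 1.73, Lhx5 at 0.657, Ebf2 at 0.634 and Ndnf at 0.260 CPM per kilobase.

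In PAX6-TBR2- cells the genes parted. Trp73, Lhx1, Calb2, Nhlh2, Ebf2 and Ebf3 were called lower in WT PAX6-TBR2- than in WT TBR2+, 6 of 9 tested genes where 47.7% of all genes were called and 23.5% lower. Their log2 fold changes ran from -3.87 (Nhlh2) to -2.75 (Calb2). Reln (-0.72, SE 0.55) and Cacna2d2 (-0.43, SE 0.42) were not called lower, and Ndnf (-0.31) was not either. Reln was at 119 to 154 CPM in WT PAX6-TBR2- cells, where Trp73 was at 1.14 to 2.23 CPM and Lhx5 had 2 counts in 4 libraries. The interneuron list, whose cells also express Reln, summed to 415 to 1176 CPM in WT PAX6-TBR2- and to 6.21 to 8.84 CPM in WT TBR2+; its part in the Reln level was not tested. Against WT PAX6+, 2 of the 9 tested genes were called, Nhlh2 (1.34, SE 0.43) and Cacna2d2 (1.65, SE 0.43), both higher, where 67.8% of all genes were called and 33.2% higher. The other values there were 0.58 for Reln, -1.48 for Trp73, -1.02 for Lhx1, -0.06 for Calb2, -0.96 for Ndnf, -1.33 for Ebf2 and -0.31 for Ebf3. Without WT PAX6+ replicate 3, Reln (1.97, adjusted p = 9.309e-05) and Ebf3 (0.72, adjusted p = 0.009044) were called higher too, where 65.5% of all genes were called.

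KO and WT PAX6+ cells were then compared to ask whether the knockout changed these genes in the radial glia sort. None was called: 0 of the 6 genes with enough counts, where 3.64% of 14212 genes were called, and DESeq2's Wald test called 0 too. Of the 6, 3 had an unadjusted p under 0.05, against 12.2% of all genes. All 6 estimates were below 0 (49.6% of all genes), with a median log2 fold change of -1.31 against 0.002 over all genes. These counts rested on WT replicate 3. Without it Reln, Ndnf and Nhlh2 were above 0, so 3 of the 6 remained below 0 (50.2% of all genes), and the median was -0.12. Without replicate 3 of both genotypes 4 of 5 tested genes were below 0, with a median of -0.67.

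Reln, the secreted signal itself, was at 28.3, 34.0, 271 and 46.4 CPM in WT PAX6+ and at 15.8, 32.4, 85.3 and 14.1 CPM in KO PAX6+. The groups overlapped, and KO was below WT in each of the 4 pairs of libraries with the same replicate number. The normal 95% interval of KO over WT, -2.58 to -0.08, left out 0, although the unadjusted p of edgeR's test was 0.05286. The log2 fold change was -1.33 (SE 0.64, adjusted p = 0.4206). It was 0.04 (adjusted p = 0.9927) without WT replicate 3, where 2.48% of all genes were called, and -0.79 (SE 0.28, adjusted p = 0.2984) without replicate 3 of both genotypes, where 2.01% were; none of the 10 genes was called in either setting. DESeq2 returned no adjusted p for Reln here.

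Trp73 was at 1.14, 2.07, 11.4 and 2.90 CPM in WT and at 1.15, 0.850, 3.44 and 0.681 CPM in KO. KO was lower in 3 of 4 pairs, and the log2 fold change was -1.51 (SE 0.62, adjusted p = 0.3062), -0.40 without WT replicate 3 and -1.19 without replicate 3 of both. Trp73 lies 0.176 Mb from Prdm16 on chromosome 4, where both genotypes carry floxed alleles. Ndnf lies 19.475 Mb from Emx1, the Cre locus of KO, on chromosome 6. The part of these positions in the estimates was not tested. The LIM homeobox genes were too low to test. Lhx1 had 2, 3, 61 and 6 counts in WT and 1, 18, 18 and 0 in KO, and Lhx5 had 0, 1, 30 and 2 against 0, 2, 9 and 1. Most of their WT counts came from replicate 3.

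Ebf3 was at 2.29, 2.90, 13.2 and 2.80 CPM in WT and at 0.521, 3.09, 3.35 and 1.53 CPM in KO. Replicates 2 and 3 of KO were above 3 of the WT libraries, and the log2 fold change was -1.28 (SE 0.55, adjusted p = 0.337). Ebf2, with 1 to 35 counts in WT and 1 to 9 in KO, was too low to test. Nhlh2 was at 0.312, 0.309, 4.58 and 0.256 CPM in KO, below the WT library of the same number each time (-1.08, SE 0.80, adjusted p = 0.691). Ebf3 was at -0.29 without WT replicate 3 and at -0.59 (adjusted p = 0.8331) without replicate 3 of both. Nhlh2 moved most with the libraries used. Its estimate was 0.08 (adjusted p = 0.9924) without WT replicate 3, and -3.28 and called lower (SE 0.80, adjusted p = 0.03786) without KO replicate 3, where 3% of all genes were called; without both it was too low to test.

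Cacna2d2 came nearest to a call. It was at 6.42, 6.5, 29.4 and 5.28 CPM in WT and at 2.71, 5.41, 4.67 and 3.24 CPM in KO, lower in all 4 pairs (-1.55, SE 0.46, adjusted p = 0.09068). The lowest WT and the highest KO library overlapped narrowly. Without WT replicate 4 it was called (-1.78, adjusted p = 0.03312). The estimate was -0.58 without WT replicate 3 and -0.67 (adjusted p = 0.4678) without replicate 3 of both. Ndnf was at 1.85, 2.42, 9.25 and 2.69 CPM in WT and at 2.29, 2.86, 5.37 and 5.03 CPM in KO (-0.05, SE 0.44, adjusted p = 0.9854), higher in KO in 3 of 4 pairs. Its estimate was 0.76 without WT replicate 3 and 0.56 without replicate 3 of both. Calb2 had 14, 4, 8 and 1 counts in WT and 0, 10, 9 and 0 in KO and was too low to test.

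Same-numbered PAX6+ libraries deviated together, so the comparison was also made with the replicate number as a block. The labels do not pair the libraries, so the block rests on correlations in these same data (0.16 to 0.36). Calls over all genes rose from 517 to 1045 with the block. The comparison with the block called 4 of the 6 genes lower in KO, where 7.35% of all genes were called: Reln (-1.07, adjusted p = 0.001301), Cacna2d2 (-1.25, adjusted p = 0.01373), Trp73 (-1.35, adjusted p = 0.01992) and Nhlh2 (-1.43, adjusted p = 0.0411). Ebf3 (-1.12, adjusted p = 0.05763) and Ndnf (0.12) were not called. With the block and without replicate 3 of both genotypes, Reln alone was called (-0.84, SE 0.20, adjusted p = 0.01296), where 6.13% of all genes were. Reln, Nhlh2 and Cacna2d2 were lower in KO in all 4 pairs, a pattern shown by 14.4% of tested genes. None of the 10 genes separated the genotypes completely, which 8.48% of tested genes did.

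**Figure D2:**
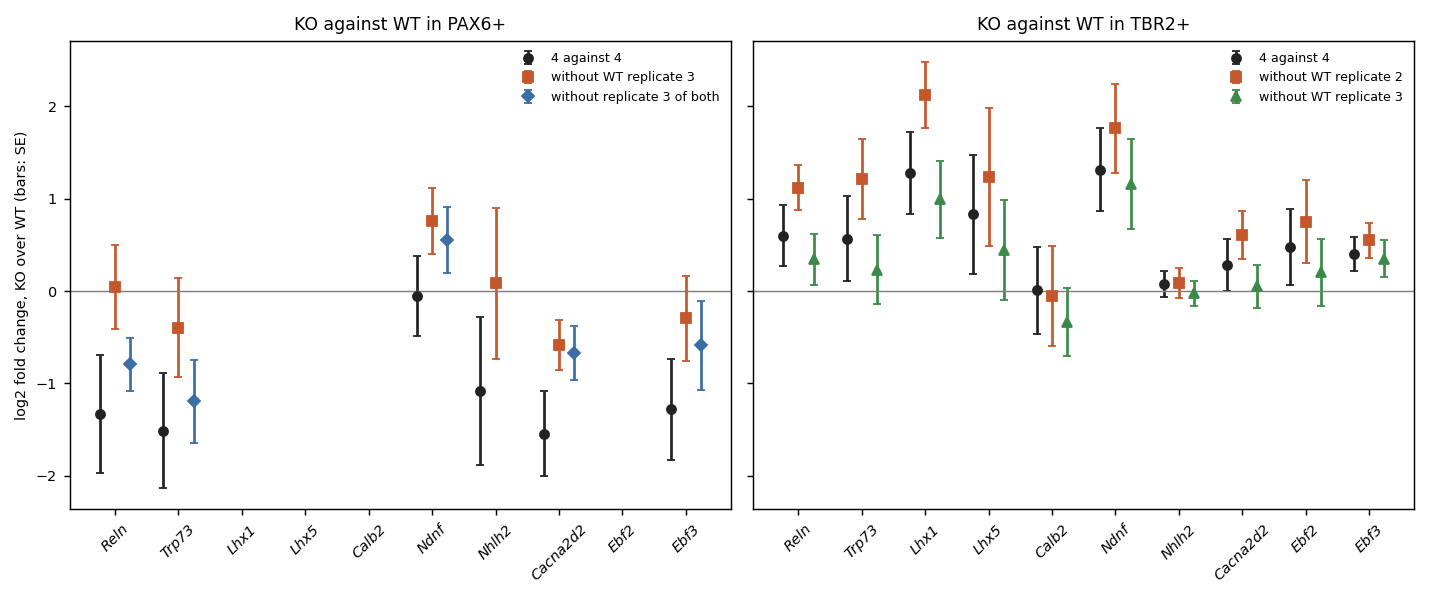
Log2 fold change of KO over WT for each gene in PAX6+ (left) and TBR2+ (right), with bars for 1 standard error. Black circles use all libraries, orange squares leave out WT replicate 3 (left) or WT replicate 2 (right), blue diamonds leave out replicate 3 of both genotypes, green triangles leave out WT replicate 3 (right), and genes with no symbol were too low to test; the Reln estimate moves from -1.33 to 0.04 without WT replicate 3 in PAX6+, and in TBR2+ from 0.60 to 1.12 without WT replicate 2 and 0.34 without WT replicate 3.

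Markers of other cells moved with the PAX6+ comparison. The endothelial and mural list summed to 25.3, 15.8, 47.4 and 29.3 CPM in WT PAX6+ and to 16, 11.7, 32.9 and 6.81 CPM in KO, highest in replicate 3 in both genotypes. Of its 9 genes 7 were tested, all below 0 in KO, and Slco1c1 was called (-2.03), though not without WT replicate 3 (-1.41) or replicate 3 of both (-1.79). The meninges list summed to 4.08 to 5.63 CPM in WT, with Lum and Pdgfra at 0, and to 2.56 to 4.56 CPM in KO; replicate 3 was within the range of the others. The interneuron list summed to 8.44 to 34.4 CPM in WT, with 13.9 CPM in replicate 3, and to 8.18 to 11 CPM in KO. The intermediate progenitor list was at 582 CPM in WT replicate 3 against 408 to 516 CPM in the other WT libraries, and its gene Eomes was called lower in KO (-0.74), though not without WT replicate 3 (-0.53) or replicate 3 of both (-0.58). The part of these cells in the lower estimates was not tested. Of the microglia, erythroid and choroid plexus lists 1, 2 and 1 genes were tested, and 0 were called. Of the other Cajal-Retzius list, 12 further genes known from these cells, 7 were highest in WT replicate 3 (30.8% of tested genes): Nxph3, Nxph4, Mab21l1, Car10, Tmem163, Barhl2 and Tbr1. Only 8 of the 12 were tested. Tbr1, a transcription factor gene also known from deep-layer neurons, was at 5.45, 3.94, 16.6 and 5.60 CPM in WT. The sum of that list was 207 CPM in replicate 3 against 210 to 222 CPM; Emx2 alone gave 97.4 to 119 CPM of it and was lowest in replicate 3.

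**Figure D3:**
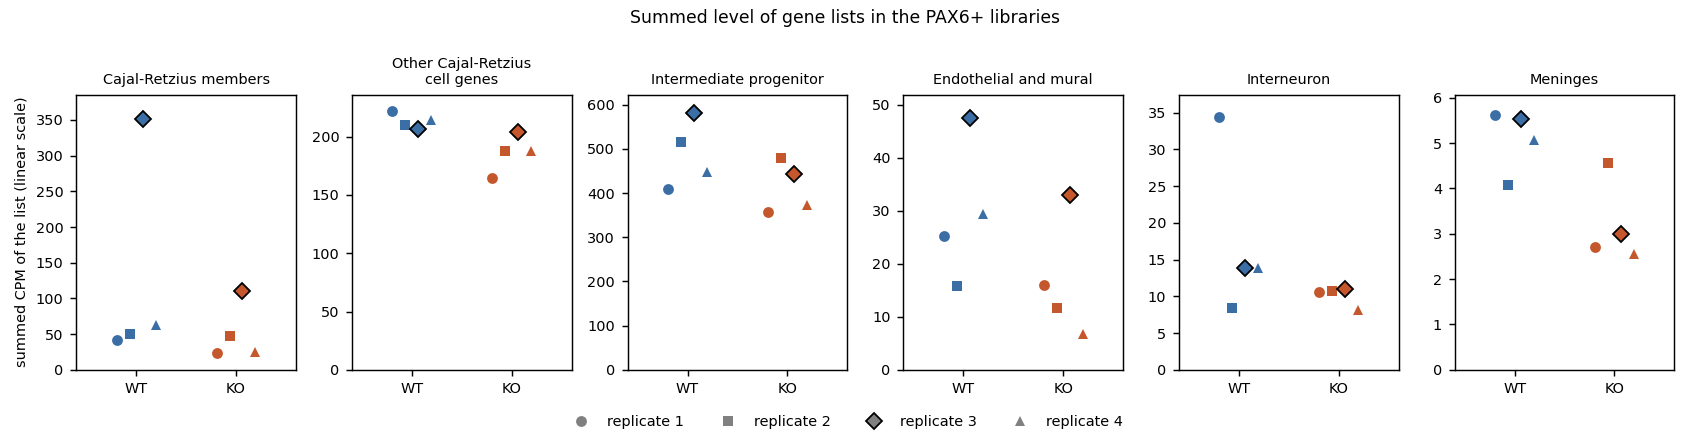
Summed level (CPM, linear scale from 0) of 6 gene lists in the 4 WT and 4 KO PAX6+ libraries, where points are libraries and replicate 3 is outlined in black. The 10 Cajal-Retzius genes stand at 351 CPM in WT replicate 3, of which Reln gives 271 CPM, and the endothelial and mural genes at 47.4 CPM. The summed other Cajal-Retzius genes lie within 164 to 222 CPM although 7 of the 12 genes are highest in WT replicate 3.

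In TBR2+ cells the same comparison, with all libraries, pointed the other way. The direction in PAX6+ rested on WT PAX6+ replicate 3, without which 3 of 6 estimates were below 0. All 10 genes were tested in TBR2+, and all 10 estimates were above 0 (50.4% of all genes). Their median log2 fold change was 0.52 against 0.002 over all genes. The 10 genes varied together within groups, so their directions are not independent, and Nhlh2 (0.07) and Calb2 (0.01) were near 0. None was called, where 1.76% of 12687 genes were, and DESeq2 called 0. Of the 10, 3 had an unadjusted p under 0.05, against 12.3% of all genes.

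Lhx1 and Ndnf had the widest differences. Lhx1 was at 3.02, 16.5, 2.21 and 6.48 CPM in WT and at 18.8, 24.5, 13.7 and 11.3 CPM in KO, a log2 fold change of 1.28 (SE 0.44, 95% interval 0.40 to 2.15, adjusted p = 0.2265). Only WT replicate 2 reached into the range of the KO libraries. Ndnf was at 0.453, 4.74, 1.66 and 3.66 CPM in WT and at 3.84, 7.56, 6.83 and 7.84 CPM in KO (1.31, SE 0.45, adjusted p = 0.2163). Both genes were higher in KO in all 4 same-numbered pairs, as were 11.4% of tested genes. In TBR2+ the replicate numbers were not taken to pair libraries, so these pairs match by number only. No gene of the 10 separated the genotypes completely, as 6.75% of tested genes did.

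Reln was at 140, 446, 97.0 and 245 CPM in WT TBR2+ and at 291, 443, 309 and 356 CPM in KO TBR2+ (0.60, SE 0.33, 95% interval -0.04 to 1.24, adjusted p = 0.5113). The KO libraries lay within the WT range, which was wide. Trp73 was at 7.40, 32.7, 2.95 and 19.3 CPM in WT and at 26.0, 32.4, 18.8 and 14.7 CPM in KO (0.57, SE 0.46, adjusted p = 0.7106), and Lhx5 had 2, 19, 0 and 22 counts in WT against 23, 28, 14 and 12 in KO (0.83, SE 0.64). Ebf3 was at 33.5, 47.6, 32.4 and 32.4 CPM in WT and at 49.7, 62.9, 32.3 and 46.9 CPM in KO (0.40, SE 0.18, adjusted p = 0.3907). Ebf2 (0.48, SE 0.41), Cacna2d2 (0.28, SE 0.28), Nhlh2 (0.07, SE 0.14) and Calb2 (0.01, SE 0.47) had estimates close to or below their SE. For Nhlh2, whose libraries varied little, the 95% interval ran from -0.21 to 0.35.

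Both the estimates and the calls depended on single WT libraries. Without WT TBR2+ replicate 3, which was below its group mean for all 10 genes, the estimates fell to 0.34 for Reln (SE 0.28, adjusted p = 0.7661), 0.23 for Trp73, 0.44 for Lhx5, 0.20 for Ebf2 and 0.05 for Cacna2d2, and Calb2 (-0.33) and Nhlh2 (-0.03) were below 0. The median of the 10 was then 0.29 and none was called, where 0.931% of all genes were. Without WT TBR2+ replicate 2 Lhx1 (2.12, SE 0.36, adjusted p = 0.01079) and Reln (1.12, SE 0.25, adjusted p = 0.04407) were called higher in KO, where 1.38% of all genes were called. Replicate 2 was the highest of WT TBR2+ for 6 of the 10 genes, a place it held for 21.9% of tested genes, and KO TBR2+ replicate 2 was highest for 7 (21.1%). The summed level of the 10 genes was 345, 763, 252 and 514 CPM in WT and 585, 821, 546 and 601 CPM in KO. Without Reln the sums were 205, 317, 155 and 269 CPM in WT and 294, 378, 236 and 246 CPM in KO. In these cells the meninges list summed to 40.0 to 46.9 CPM in WT and 32.8 to 53 CPM in KO. The interneuron list summed to 6.21 to 8.84 and 5.02 to 7.69 CPM, and the endothelial and mural list to 8.34 to 28.2 and 4.39 to 19.9 CPM. Only 1 of 9, 1 of 11 and 3 of 9 genes of these 3 lists were tested, and 0 were called. The subplate list was higher in KO, at 62.5, 65.9, 77.9 and 92.9 CPM in WT and 72.7, 102, 95.7 and 185 CPM in KO. In KO the list was above WT in all 4 same-numbered pairs, though these numbers were not taken to pair libraries. Of its 6 genes 3 were tested. Their median was 0.64, with 1 estimate below 0, and Nr4a2, a nuclear receptor gene of subplate neurons, was called higher (from 20.2 to 31.3 CPM on average, 0.64, adjusted p = 0.04499), a call lost in 6 of 8 fits that left out 1 library. Its part in the values of the 10 genes was not tested.

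The difference between the 2 genotype effects was tested as an interaction. All 10 estimates, TBR2+ over PAX6+, were above 0 (50.4% of all genes), with a median of 1.77 against 0.002 over all genes, and none was called where 0.612% of 14548 genes were (DESeq2: 0). Of the 10, 4 had an unadjusted p under 0.05, against 7.43% of all genes. Cacna2d2 (1.84, SE 0.61, adjusted p = 0.2937) and Ebf3 (1.71, SE 0.60, adjusted p = 0.3656) had the smallest adjusted p, followed by Trp73 (2.11, SE 0.89, adjusted p = 0.5298) and Reln (1.94, SE 0.84, adjusted p = 0.5604). Lhx1 (1.97), Lhx5 (1.96), Ebf2 (1.58), Ndnf (1.37), Nhlh2 (1.23) and Calb2 (0.36) had larger SEs relative to their size. Without WT PAX6+ replicate 3 the estimates were 0.55 for Reln, 0.95 for Trp73, 0.85 for Cacna2d2 and 0.68 for Ebf3, and those of Lhx1 (-0.05), Lhx5 (-0.65), Nhlh2 (-0.01) and Ebf2 (-0.29) were no longer above 0; none was called, where 0.528% of all genes were. With the replicate number as a block, within each population, 5 of the 10 were called, where 2.22% of all genes were: Reln (1.87, adjusted p = 0.0004158), Ebf3 (1.53, adjusted p = 0.006618), Cacna2d2 (1.65, adjusted p = 0.009112), Trp73 (2.21, adjusted p = 0.02161) and Nhlh2 (1.22, adjusted p = 0.02763). With the block and without replicate 3 of both genotypes in PAX6+, Reln (1.62, adjusted p = 0.002404) and Nhlh2 (2.18, adjusted p = 0.008106) were called, where 1.75% of all genes were. The numbers met the rule for pairing in PAX6+ but not in TBR2+. An estimate below 0 in PAX6+ together with one above 0 in TBR2+ was found for 19% of the 12253 genes tested in both, and for all 6 of these genes that were. Without WT PAX6+ replicate 3 it was found for 3 of the 6, against 19.7% of 12288 genes.

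In PAX6-TBR2- cells the estimates were small, 4 above 0 (50.1% of all genes) and 2 below. Of the 6 genes tested, 0 were called, where 0.00774% of genes were; 0 had an unadjusted p under 0.05 (6.61% of all genes), and DESeq2 called 0. Reln was at 119, 154, 153 and 129 CPM in WT and at 157, 157, 183 and 137 CPM in KO (0.20, SE 0.11, adjusted p = 0.8039). The interneuron list moved the same way: it summed to 415, 534, 904 and 1176 CPM in WT and to 569, 818, 1342 and 1310 CPM in KO, and all 11 of its genes had estimates above 0, with a median of 0.40 and 0 called. Its part in the Reln values was not tested. Cacna2d2 was at 32.4, 24.4, 50.0 and 42.1 CPM in WT and at 34.8, 35.3, 58.0 and 48.0 CPM in KO (0.24, SE 0.20). Both were higher in KO in all 4 same-numbered pairs, as were 8.7% of tested genes, though the groups overlapped. The numbers were not taken to pair libraries in these cells either. Ndnf (0.20), Nhlh2 (0.05), Trp73 (-0.05) and Ebf3 (-0.10) differed by less than 1 SE. Calb2 had 4, 4, 6 and 6 counts in WT and 1, 1, 1 and 0 in KO, the only one of the 10 genes whose groups did not overlap (4.01% of tested genes), but was too low to test, as were Lhx1, Lhx5 and Ebf2. The genotype effect in PAX6-TBR2- was also set against that in PAX6+, where 0 of 7 tested genes were called (0.775% of all genes) and all 7 estimates, for Reln, Trp73, Lhx1, Ndnf, Nhlh2, Cacna2d2 and Ebf3, were above 0 (48.6% of all genes), those of Lhx1, Ndnf and Nhlh2 not without WT PAX6+ replicate 3. Cacna2d2 alone had an unadjusted p under 0.05 there (7.07% of all genes). Set against TBR2+, 0 of 10 were called (0.051%), with Lhx5, Nhlh2 and Ebf2 above 0 and Reln, Trp73, Lhx1, Calb2, Ndnf, Cacna2d2 and Ebf3 below 0 (54.3% of all genes); 0 had an unadjusted p under 0.05 (4.94%). DESeq2 called 0 in both.

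Within groups the 10 genes varied together. After the group means were subtracted from log2 CPM, all 45 pairs of genes had a Pearson correlation above 0 over the 24 libraries, with a median of 0.62 and a range of 0.13 to 0.89. The libraries share depth, amplification and, within a population, library set. WT PAX6+ replicate 3 was above its group mean for all 10 genes, by 1.71 on the log2 scale on average, and KO PAX6+ replicate 3 for all 10, by 1.19. WT TBR2+ replicate 2 and KO TBR2+ replicate 2 were above theirs for all 10 as well (0.96 and 0.39), and WT TBR2+ replicate 3 was below for all 10 (-1.10). In PAX6-TBR2- cells the mean deviations ran from -0.33 to 0.16.

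**Figure D4:**
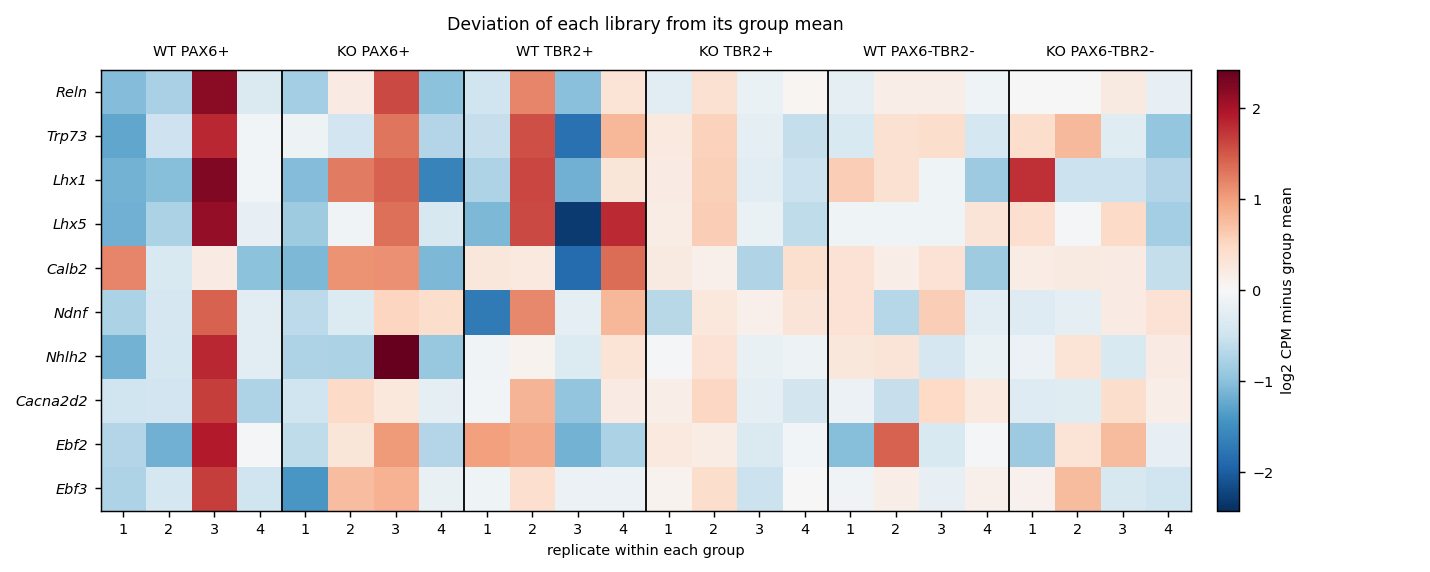
Deviation of each of the 24 libraries from its group mean for each of the 10 genes, as log2 CPM minus the group mean (red above, blue below). Columns are replicates 1 to 4 within the 6 groups; WT PAX6+ replicate 3 and KO PAX6+ replicate 3 are above the mean for all 10 genes, and WT TBR2+ replicate 3 is below it for all 10.

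Genes whose pattern was nearest to the mean of the 10 were sought among 14222 genes with a mean of at least 1 CPM. Over the 24 libraries Ebf1 came first (Pearson r = 0.94), followed by Pip4k2c (0.90), Fam43a, Smox, Trafd1, Fam110a, Coro2b and 5330417C22Rik (all 0.89). With group means subtracted the nearest were Ppp2r2c (0.93), Gm16110 (0.89), March4 (0.85), Ckmt1 (0.83), Ccbe1 (0.83), Plxna2 (0.81), Sema4a (0.80) and Syp (0.79). Gm16110 is an antisense gene inside Reln on the opposite strand, and its exons share 0 bases with those of Reln. The strand setting of the counting is not given, so reads from Reln introns may be counted to it. These correlations describe the same libraries, which share depth and library set.

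Ebf1, a relative of Ebf2 and Ebf3 from the same family of transcription factors, was called in TBR2+. It was at 19.9, 13.9, 8.84 and 14.6 CPM in WT and at 26.0, 30.9, 31.1 and 30.4 CPM in KO, and the groups did not overlap. The log2 fold change was 1.04 (SE 0.19, adjusted p = 0.0103), and the call held with each of the 8 libraries left out but not with all 24 libraries in 1 fit (adjusted p = 0.1177). It was the only 1 of 7 tested genes called among the EBF, LIM homeobox and NHLH relatives. In PAX6+ cells Ebf1 was at or under 2.25 CPM in every library and was not tested.

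Few other genes tied to these cells were called. Of the 12 other Cajal-Retzius genes, 8 were tested in PAX6+ (median -0.30), of which 6 were below 0, and Zic1, a zinc finger gene, was called lower (from 40.5 to 26.2 CPM on average, -0.61, adjusted p = 0.04301), a call lost in 7 of 8 fits that left out 1 library but held without WT replicate 3 (-0.75, adjusted p = 0.006416) and without replicate 3 of both (-0.78, adjusted p = 0.01865). In TBR2+ 11 were tested and 0 called, 7 above and 4 below 0. The 19 genes of reelin receptors and intracellular signalling were all tested, and 0 were called in PAX6+ (10 above and 9 below 0), in TBR2+ (9 above and 10 below) and in PAX6-TBR2- (7 above and 12 below), with medians of 0.01, -0.01 and -0.04. Among the 3 other alpha2delta subunit genes, Cacna2d1 was called higher in KO PAX6+ (from 20.3 to 35.8 CPM on average, 0.83, adjusted p = 0.03033), opposite in sign to the Cacna2d2 estimate; its WT libraries were at 14.5, 16.6, 32.7 and 17.3 CPM and its KO libraries at 40.3, 38.7, 29.5 and 34.5 CPM, and the call was lost in 5 of 8 such fits. It was 1.16 (adjusted p = 0.0003921) without WT replicate 3 and 1.22 (adjusted p = 0.0004554) without replicate 3 of both. Among the cortical hem and antihem genes Dmrt3, which encodes a transcription factor of cortical progenitors, was called higher in KO PAX6+ (0.49, adjusted p = 0.02113), 1 of 8 tested, a call lost in 4 of 8 such fits, among them that without WT replicate 3 (0.46, adjusted p = 0.0879), and without replicate 3 of both (0.42, adjusted p = 0.2029). No gene of the p53 family list was called in PAX6+, TBR2+ or PAX6-TBR2- cells.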

How the data were processed

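RNA of the sorted cells was extracted, amplified by single primer isothermal amplification and sequenced, per the labels' protocols, which name no molecular identifiers. Tools named in the submitters' processing notes are STAR, featureCounts, cutadapt, FastQC and DESeq2 (no versions), with build mm10. Which annotation release and strand setting were used is not given in the sources used here. Among the deposited files, the raw tables give counts by Ensembl identifier in 2 lanes for each library; the lanes were added. The deposited normalized tables hold signal values, from which whole reads were recovered for 100% of values (tolerance 1e-06) and tested as an alternative. In PAX6+ these equal the raw counts, but by group they total 1.47 to 1.48 times the raw counts in TBR2+ and 1.44 to 1.70 times in PAX6-TBR2-, so the 2 deposited tables differ there; the raw counts were used, and the reason for the difference is not given in the sources used here. Counting error covers sampling of reads only.

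The gene set, the other gene lists and the rules were chosen with earlier results of these data known. Named beside the 10 genes are list genes called in a genotype comparison or interaction (up to 5 a list), Pax6, Eomes, Tubb3 and Prdm16, and the 8 genes of nearest pattern by 2 measures. Identifiers were placed with GENCODE M21 (37693 of 39017). Of 159 list genes 157 matched; the lists are those named in the text plus radial glia, pan-neuronal, subplate, microglia, erythroid and choroid plexus genes. Exons of Reln, Trp73, Lhx5, Cacna2d2, Ebf2 and Ebf3 overlap opposite-strand genes by 69 to 424 bases, so their reads may be mixed.

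Groups were compared by the quasi-likelihood F test of edgeR 4.0.16 under R 4.3.3 (TMM scaling after filterByExpr, two-sided, Benjamini-Hochberg over all tested genes, call at adjusted p under 0.05), 4 against 4 libraries per population, with interactions over 16 and WT populations over 12 libraries. SE is the size of the log2 fold change over the square root of F. The 95% intervals are normal intervals from it. They are narrower than intervals from the F test, which has few residual degrees of freedom. CPM are TMM-scaled over 24 libraries. The fit was tested on simulated data. DESeq2 1.42.0 was an alternative, with other size factors, no filter, 1 fit of all libraries, the replicate block and each library left out. Settings without replicate 3 of both genotypes in PAX6+ were added after seeing the data. The replicate numbers were taken to pair libraries in PAX6+ only, where each of 4 pairs of deviations correlated above 0.1 (0.16 to 0.36) and each library correlated best with its own number.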

Additional observations from a re-analysis of the deposited data

Results flagged for a closer look

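In groups of 4, a library was singled out where its gap to the nearest other exceeded Dixon's 95% critical value for the group's range. Of 60 combinations of gene and group 14 did so. The nominal rate of about 1 in 20 holds for independent normal values. These genes varied together and some had few counts, so the 14 cannot be judged against that rate. The share over all genes was not computed. WT PAX6+ replicate 3 gave 8 of them, all high: Reln 271 CPM, Lhx1 3.92, Lhx5 1.93, Ndnf 9.25, Nhlh2 7.71, Cacna2d2 29.4, Ebf2 2.25 and Ebf3 13.2 CPM. KO PAX6+ replicate 3 was far above its group for Trp73 (3.44 CPM) and Nhlh2 (4.58 CPM). WT TBR2+ replicate 2 was far above for Ebf3 (47.6 CPM), and KO PAX6-TBR2- replicate 1 for Lhx1 (2.41 CPM). Lhx5 at 0.0734 CPM in WT PAX6-TBR2- replicate 4, and Calb2 at 0 CPM in KO PAX6-TBR2- replicate 4, rest on 2 and 0 counts.

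The genotype effect differed between PAX6-TBR2- and PAX6+ cells by the interaction test in edgeR for 3 genes of the other lists. The difference on the log2 scale was 1.11 for Dcx (adjusted p = 0.03233), -1.03 for Syt1 (adjusted p = 0.01803) and -5.88 for Npy (adjusted p = 0.0167). Dcx and Syt1 are pan-neuronal genes, and Npy encodes a neuropeptide of interneurons. Npy had 0 counts in all 4 WT PAX6+ libraries and was at 0.309 to 1.5 CPM in KO PAX6+, so its fitted difference depends on the prior count and is no bound. The call for Dcx was lost in 11 of 16 fits that left out 1 library and that for Syt1 in 2 of 16.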

How the results depend on the processing

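Counts of called genes moved with the fit. In PAX6+ 0 of the 10 genes became 4 with no filter, 4 with the replicate block, 1 with all 24 libraries in 1 fit, 1 with the block without replicate 3 of both genotypes, and 0 to 1 when 1 library was left out (Cacna2d2 without WT PAX6+ replicate 4, Nhlh2 without KO PAX6+ replicate 3). In TBR2+ 0 became 4 with no filter, 3 with the replicate block (Lhx1, Ndnf and Reln), and 0 to 2 with 1 library left out (2 without WT TBR2+ replicate 2). For the interaction of TBR2+ with PAX6+ 0 became 6 with no filter, 5 with the replicate block and 2 with the block without replicate 3 of both. For PAX6-TBR2- against PAX6+ it became 2 with no filter and 2 with the block. In WT PAX6-TBR2- against WT PAX6+ 2 became 6 with no filter and 2 to 4 with 1 library left out (4 without WT PAX6+ replicate 1, 2 or 3), and in WT TBR2+ against WT PAX6+ 8 became 5 to 8. The cause was not tested. In TBR2+ and PAX6-TBR2- the replicate numbers did not meet the rule for pairing (2 and 3 of 4 pairs above 0.1), so the block there is a hint only; it changed no other count of calls.

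Estimates that changed sign under another setting were Ndnf in PAX6+ (0.12 with the replicate block, 0.56 without replicate 3 of both, 0.49 with both), Ebf3 in PAX6-TBR2- (0.011 with recovered reads), Nhlh2 (-0.0022 in DESeq2, -0.012 with no filter, -0.00067 in 1 fit) and Cacna2d2 (0.0013 with recovered reads) in PAX6-TBR2- against TBR2+, and Calb2 in WT PAX6-TBR2- against WT PAX6+ (0.16 in DESeq2). With KO in place of WT libraries, Ndnf in TBR2+ against PAX6+ was 0.76, and in PAX6-TBR2- against PAX6+ Trp73 was 0.047, Lhx1 0.070, Ebf2 0.59 and Ebf3 0.91.

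With 1 library left out, sign changed within these ranges: in PAX6+ Reln -2.16 to 0.045, Ndnf -0.29 to 0.76 and Nhlh2 -3.28 to 0.084; in TBR2+ Calb2 -0.33 to 0.57 and Nhlh2 -0.058 to 0.18; in PAX6-TBR2- Trp73 -0.40 to 0.24, Nhlh2 -0.068 to 0.17 and Ebf3 -0.43 to 0.078. For TBR2+ against PAX6+ the ranges were Lhx1 -0.050 to 2.83, Lhx5 -0.65 to 3.43, Calb2 -0.35 to 0.93, Nhlh2 -0.013 to 3.41 and Ebf2 -0.29 to 2.34. For PAX6-TBR2- against PAX6+ they were Lhx1 -0.98 to 1.56, Ndnf -0.56 to 0.50 and Nhlh2 -0.031 to 3.34, and against TBR2+ Nhlh2 -0.11 to 0.14, Cacna2d2 -0.37 to 0.19 and Ebf2 -0.094 to 1.08. In WT, Ndnf ran from -1.10 to 0.18 (TBR2+ against PAX6+) and -0.68 to 0.15 (PAX6-TBR2- against TBR2+), and in PAX6-TBR2- against PAX6+ Lhx1 -1.39 to 0.99, Calb2 -0.33 to 0.66, Ebf2 -2.12 to 0.55 and Ebf3 -0.55 to 0.72. Of all member values, 1248 kept direction and side of the threshold, 74 changed sign, 48 gained a call and 12 lost one. Counts of Lhx5 and Ebf2 in PAX6+, at most 9 outside WT replicate 3, limit the precision. Over all genes, calls in PAX6+ were 517, 1045 with the replicate block and 287 without replicate 3 of both; in TBR2+ 223, 720 with the block, 728 with no filter, 350 in DESeq2 and 121 to 420 with 1 library left out; in PAX6-TBR2- 1, 153, 38 and 24; and for the interaction of TBR2+ with PAX6+ 89, 323, 329 and 159, in the same order.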

Other observations

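In KO PAX6+ cells several genes of other cell classes changed, by edgeR's quasi-likelihood test. Slc1a3, a glutamate transporter gene of radial glia, was higher (log2 fold change 0.43, adjusted p = 0.03541), 1 of 9 radial glia genes tested. Insm1, a transcription factor gene of intermediate progenitors, was lower (-0.52, adjusted p = 0.01738), as was Eomes (-0.74, adjusted p = 0.0358). Of the pan-neuronal genes Dcx was lower (-1.01, adjusted p = 0.008095) and Syt1 higher (1.36, adjusted p = 0.004319). Of the genes listed as subplate Moxd1 was higher (3.01, adjusted p = 0.0003354) and Lpar1 lower (-0.63, adjusted p = 0.004746). Lpar1 was at 81.4 CPM on average in WT PAX6+. The subplate list summed to 207 to 226 CPM there, against 62.5 to 92.9 CPM in WT TBR2+. Gad2 of interneurons (-1.68, adjusted p = 0.01858) and Col1a2 of meninges (-2.06, adjusted p = 0.01243) were lower, from means of 4.04 and 1.51 CPM. With 1 library left out, the calls were lost in 5 of 8 fits for Slc1a3, 5 of 8 for Eomes, 3 of 8 for Insm1, 3 of 8 for Gad2 and 1 of 8 for Col1a2, and in 0 of 8 for Syt1, Dcx, Moxd1 and Lpar1. Without replicate 3 of both genotypes Moxd1 (2.72, adjusted p = 0.01066) and Syt1 (1.49, adjusted p = 0.01481) were called, while Dcx (-1.02, adjusted p = 0.08145), Lpar1 (-0.61, adjusted p = 0.06084), Slc1a3 (0.52, adjusted p = 0.0607), Insm1 (-0.43, adjusted p = 0.1678), Eomes (-0.58, adjusted p = 0.2221), Gad2 (-1.71, adjusted p = 0.1028) and Col1a2 (-1.83, adjusted p = 0.08893) were not. Without WT replicate 3 alone, Slc1a3, Insm1 and Eomes lost their calls.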
